A study of Rattus norvegicus with 8 samples.

Results

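This report describes 7 genes of red blood cell development among the 24059 genes measured in rat germ cells: the band 3 anion exchanger Slc4a1, the globins Hbb and Hba-a1, the heme enzyme Alas2, the globin chaperone Ahsp, the membrane protein Epb42 and the transcription factor Klf1. The 7 were matched by symbol from a given list, and they were chosen from the comparison of doxorubicin with control in these same libraries, in which Slc4a1 and the globins moved in opposite directions. Their values in that comparison are therefore a description with no test. Transcripts were sequenced from polyA RNA of GFP-positive testis germ cells of transgenic Sprague-Dawley rats carrying the GCS-EGFP reporter, which both groups shared. Prepubertal rats received doxorubicin at 5 mg/kg (rats 2, 3, 6 and 8) or vehicle (rats 1, 4, 5 and 9) on postnatal day 6, and the cells were isolated 24 h later. Each library came from 1 rat, and the model is limited to the cells that the reporter marks. Doxorubicin, an anthracycline used against cancer, breaks DNA by way of topoisomerase II.

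Red cell precursors fill with hemoglobin, a tetramer of alpha and beta globin chains that each hold a heme. The factor KLF1 binds CACCC motifs at erythroid promoters, ALAS2 starts heme synthesis, and AHSP binds free alpha globin. Band 3 (SLC4A1) exchanges chloride for bicarbonate across the red cell membrane and, with protein 4.2 (EPB42), anchors the spectrin skeleton; a shorter form serves acid secretion in the kidney.

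Of the 7 genes, 5 had a promoter in a RefSeq table of the GRCr8 assembly; Slc4a1 and Ahsp had none. The 120 bases before the annotated start are shown for the globin genes, because Hbb and Hba-a1 were lower together, for Hbb-b2, because the table pairs the Hbb row with its identifier, and for Klf1, the factor of the set. All lie on the minus strand of GRCr8 and are written 5′ to 3′, Hbb at chr1:167663722-167663841, Hbb-b2 at chr1:167656964-167657083, Hba-a1 at chr10:15842581-15842700 and Klf1 at chr19:40158652-40158771. Capitals mark 4 motifs searched on both strands. The CACCC box was spelled CACACCC, the CCAAT box by its own name, the core of a TATA box as ATAAA and the GATA motif as GATAAG.
Hbb: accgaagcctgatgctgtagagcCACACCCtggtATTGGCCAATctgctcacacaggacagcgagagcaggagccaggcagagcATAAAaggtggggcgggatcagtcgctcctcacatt
Hbb-b2: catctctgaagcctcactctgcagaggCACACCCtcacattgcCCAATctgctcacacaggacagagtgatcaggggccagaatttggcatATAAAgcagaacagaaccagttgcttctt
Hba-a1: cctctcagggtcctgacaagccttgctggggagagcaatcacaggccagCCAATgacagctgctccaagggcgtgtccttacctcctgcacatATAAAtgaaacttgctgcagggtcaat
Klf1: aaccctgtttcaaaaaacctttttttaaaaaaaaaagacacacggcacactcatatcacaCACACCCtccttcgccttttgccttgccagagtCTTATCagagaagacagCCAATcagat
In the 250 bases before the start, the CACCC box was present in 6.1% of the 33469 promoters of the table, the CCAAT motif in 34.0%, the TATA core in 39.3% and the GATA motif in 6.2%. Hbb held a CACCC box 97 to 91 bases before its start, next to an inverted and a direct CCAAT, and a TATA core 36 to 32 bases before it. Hba-a1 held CCAAT and the TATA core in this stretch and a GATA motif further upstream, 164 to 159 bases before its start. Klf1 held a CACCC box, a GATA motif on the minus strand and a CCAAT. Alas2 and Epb42, whose promoters are not shown, held no match to any of the 4 motifs in their 250 bases. A match of letters is a description and does not show that a factor binds.

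These rows stand for families of alike genes. RefSeq lists 5 adult beta-like and 3 adult alpha-like globin genes in rat. Over 250 aligned upstream bases, Hba-a1 shared 241 with Hba-a2 and Hbb-b2 shared 248 with Hbbl1, another beta-like gene, whereas Hbb shared 171 with Hbb-b2. The Entrez identifier beside Hbb (ENSRNOG00000047098.3) belongs to Hbb-b2 in RefSeq, and that beside Hba-a1 (ENSRNOG00000029886.4) belongs to the theta-like gene Hbq1b. Which of the copies gave the reads of either row is therefore uncertain. The estimated counts were whole numbers, within 1e-06, in 7 of 8 libraries for Hbb and in 8 of 8 for Hba-a1, and in 0 of 8 for Slc4a1 (ENSRNOG00000020951.8) and Epb42 (ENSRNOG00000011649.7).

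Library totals ran from 41253848 to 58871101 estimated counts, so that 1 CPM, a count scaled to the size of its library, stood for 41.3 to 58.9 counts. CPM values below were scaled by TMM factors, which correct for differences in composition between libraries. They are not corrected for transcript length, so levels are compared between rats and not between genes. Germ cell markers such as Ddx4 and Dazl were high in every library, with a summed level of 2913 to 3032 CPM over 12 markers. The erythroid marker list, of which the 7 genes are part, summed to 14.1 to 16.1 CPM in controls over its 12 genes. After doxorubicin it summed to 15.0 to 22.4 CPM. Within this sum, Slc4a1 averaged 3.09 CPM in controls and 7.48 CPM after doxorubicin. Hbb averaged 1.55 and 0.688 CPM, and Hba-a1 2.06 and 1.12 CPM. The sum therefore does not show that red cell markers rose together. A defining marker of red cells was at or near 0: the Rh-associated glycoprotein Rhag had 2 counts in doxorubicin rat 8 and 0 in the other 7 libraries.

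Slc4a1 was more abundant after doxorubicin. The gene had 149, 189, 160 and 140 counts in control rats 1, 4, 5 and 9, and 622, 337, 265 and 373 counts in doxorubicin rats 2, 3, 6 and 8. In CPM these were 2.62, 3.35, 3.03 and 3.36 against 10.8, 6.08, 6.32 and 6.75, and every treated rat lay above every control rat. The mean was 3.09 ± 0.347 CPM in controls and 7.48 ± 2.21 CPM after doxorubicin (SD, n = 4 each), a ratio of 2.42 and a fitted log2 fold change of 1.28 ± 0.18 (SE). Doxorubicin rat 2 stood well above the other treated rats, and without it the fitted log2 fold change was 1.05. The variation between controls, 11.2% of the mean, was close to the 7.97% that counting alone gives, while that between treated rats was 29.5% against 5.25%.

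Epb42, which encodes the partner of band 3 at the membrane, did not separate the groups. Its levels were 0.598, 0.425, 0.663 and 0.839 CPM in control rats 1, 4, 5 and 9 and 0.796, 0.631, 0.715 and 0.742 CPM in doxorubicin rats 2, 3, 6 and 8. The treated rats lay within the range of the controls, and the log2 fold change was 0.21 ± 0.23 with a 95% interval from -0.29 to 0.71. With 24 to 46 counts in a library, counting alone gives 16.4% to 17.9% variation. The SE of 0.23 was larger than the fitted change of 0.21, and the smallest change that could be detected was not tested.

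**Figure D1:**
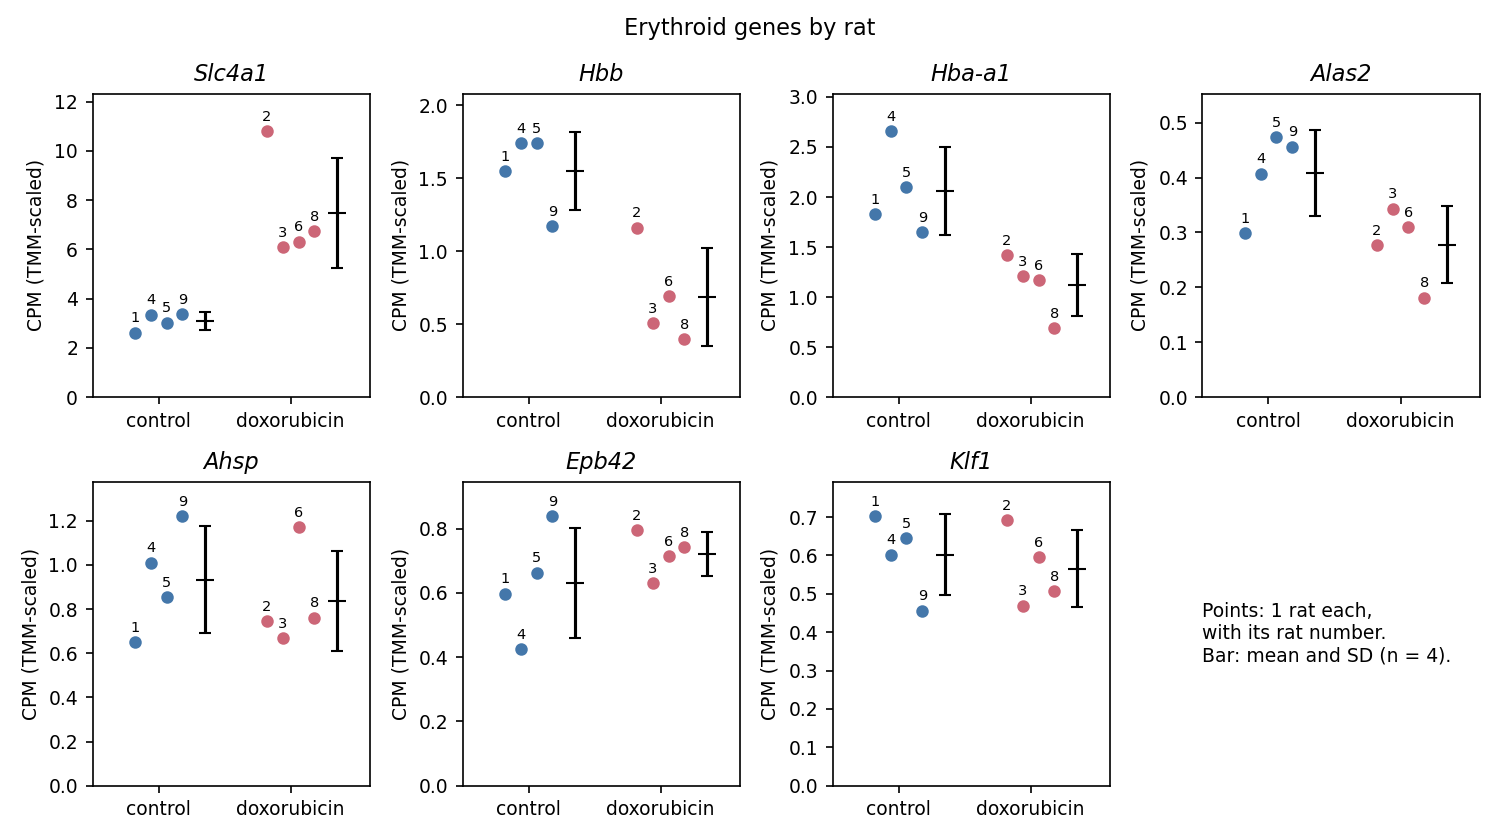
Each panel plots 1 gene, with TMM-scaled CPM on the y axis from 0 and the 2 groups on the x axis; points are single rats with their number, and bars give the mean and SD (n = 4). Treated rats lie above all controls for Slc4a1 and below all controls for Hbb and Hba-a1, and the groups overlap for Alas2, Ahsp, Epb42 and Klf1.

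Both globins were lower after doxorubicin. Hbb, the beta chain, had 88, 98, 92 and 49 counts in control rats 1, 4, 5 and 9 and 67, 28, 29 and 22 counts in doxorubicin rats 2, 3, 6 and 8. The levels were 1.55, 1.74, 1.74 and 1.17 CPM against 1.16, 0.505, 0.691 and 0.398 CPM. The groups did not overlap, but only just: the lowest control (rat 9) and the highest treated rat (rat 2) were 1.17 and 1.16 CPM, which differ by less than counting error. The mean was 1.55 ± 0.266 CPM in controls and 0.688 ± 0.336 CPM after doxorubicin (SD, n = 4 each), 2.25 times lower, with a log2 fold change of -1.17 ± 0.29 (SE). Treated rats varied by 48.9% of their mean where counting alone gives 18.1%. Without doxorubicin rat 2 the log2 fold change was -1.57, and without doxorubicin rat 8 it was -0.98.

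Hba-a1, the alpha chain, had 104, 150, 111 and 69 counts in control rats 1, 4, 5 and 9 and 82, 67, 49 and 38 counts in doxorubicin rats 2, 3, 6 and 8. In CPM these were 1.83, 2.66, 2.10 and 1.65 against 1.42, 1.21, 1.17 and 0.687, with no overlap. The mean was 2.06 ± 0.438 CPM in controls and 1.12 ± 0.309 CPM after doxorubicin, 1.84 times lower, and the log2 fold change was -0.88 ± 0.22. Rat 2 was the highest and rat 8 the lowest treated rat for both chains. In bulk RNA, fewer cells of a type and less RNA per cell cannot be told apart.

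The alpha and beta chains kept similar proportions in controls, with 1.18 to 1.53 Hba-a1 counts for each Hbb count. After doxorubicin the proportion ran from 1.22 in rat 2 to 2.39 in rat 3, and the groups overlapped. Among the 9 erythroid globin rows present, Hbb and Hba-a1 gave 90.4% of all counts. No row was named Hba-a2, Hbb-b1, Hbb-b2 or Hbb-bs, and Hbbl1 was not among the symbols searched. The part of those adult globin genes could therefore not be seen. Hba-a3 had 4 to 12 counts in control and 5 to 18 in treated libraries. The embryonic alpha-like Hbz had 1 to 10 counts in a library, Hbe2 had 0 to 3, and Hbe1 and Hbq1b had 2 counts in doxorubicin rat 3 and 0 elsewhere. Hbg1 and the beta-like LOC100134871 were at 0 in all 8 libraries. Summed over the 9 rows, globin transcripts averaged 3.83 ± 0.708 CPM in control rats and 2.17 ± 0.697 CPM in treated rats (SD, n = 4 each). On this sum the groups overlapped, with 3.02 CPM in control rat 9 and 3.08 CPM in doxorubicin rat 2.

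**Figure D2:**
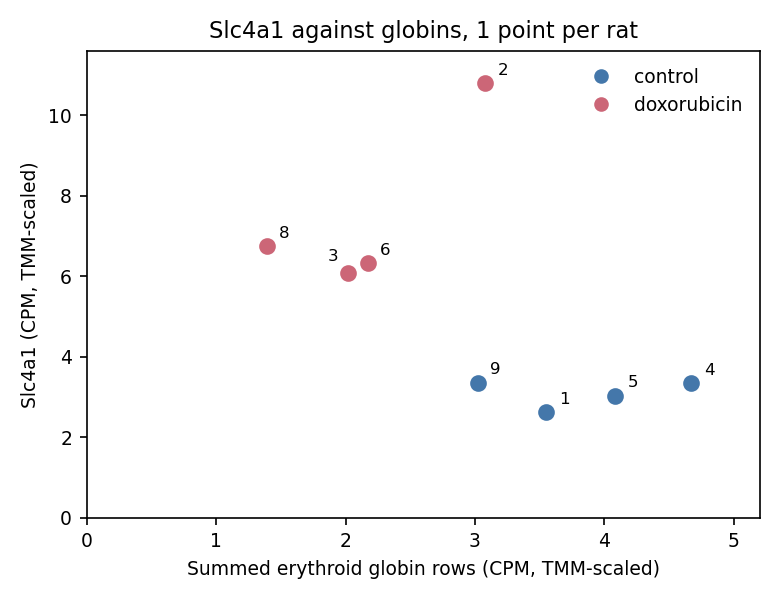
Each point is 1 rat with its number, with the summed CPM of 9 erythroid globin rows on the x axis and Slc4a1 CPM on the y axis, both from 0. Controls sit at 3.02 to 4.67 CPM of globin and at most 3.36 CPM of Slc4a1; doxorubicin rats sit at 1.39 to 3.08 CPM of globin and at least 6.08 CPM of Slc4a1.

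Ahsp and Alas2, which serve globin assembly and heme synthesis, did not separate the groups. Ahsp, the chaperone of alpha globin, was at 0.651, 1.01, 0.853 and 1.22 CPM in control rats 1, 4, 5 and 9 and at 0.744, 0.667, 1.17 and 0.760 CPM in doxorubicin rats 2, 3, 6 and 8. The groups overlapped across most of their range, and the log2 fold change was -0.17 ± 0.24 (95% interval -0.69 to 0.36). Alas2, the erythroid enzyme of the first step of heme synthesis, was at 0.299, 0.407, 0.474 and 0.456 CPM in controls and 0.277, 0.343, 0.310 and 0.181 CPM after doxorubicin, in the same order of rats. Doxorubicin rats 2 and 8 lay below all controls and rats 3 and 6 within their range, and the log2 fold change was -0.55 ± 0.29 (95% interval -1.18 to 0.07). With 10 to 25 counts in a library, the spread of Alas2 was no larger than counting alone gives in controls (19.2% against 22.1%) and after doxorubicin (25.2% against 27.0%).

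Klf1, the factor that switches on globin and membrane genes in red cell precursors, did not separate the groups either. Its levels were 0.703, 0.602, 0.645 and 0.456 CPM in control rats 1, 4, 5 and 9 and 0.692, 0.469, 0.596 and 0.507 CPM in doxorubicin rats 2, 3, 6 and 8. Every treated rat lay within the range of the controls, with a log2 fold change of -0.10 ± 0.23 (95% interval -0.59 to 0.39). Its spread matched counting error in both groups (17.6% against 18.5% in controls and 17.6% against 18.7% after doxorubicin).

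The make-up of the set differed between the groups. Because the 7 genes were chosen from this contrast, the shares and their intervals are a description with no test. Slc4a1 gave 31.8%, 32.9%, 31.9% and 36.6% of the counts of the 7 genes in control rats 1, 4, 5 and 9, and 67.9%, 61.4%, 57.6% and 67.3% in doxorubicin rats 2, 3, 6 and 8. The widest exact 95% intervals of these shares ran from 31.8% to 41.7% in controls (rat 9) and from 52.9% to 62.2% after doxorubicin (rat 6), and cover counting error only. Hbb and Hba-a1 together gave 30.9% to 43.1% of the counts in controls and 10.8% to 17.3% after doxorubicin. For each globin count there were 0.716 to 1.11 counts of Slc4a1 in controls and 2.91 to 4.84 after doxorubicin. The summed level of Alas2, Ahsp, Epb42 and Klf1 was 2.57 ± 0.307 CPM in controls and 2.40 ± 0.312 CPM after doxorubicin (SD, n = 4 each), and the groups overlapped.

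**Figure D3:**
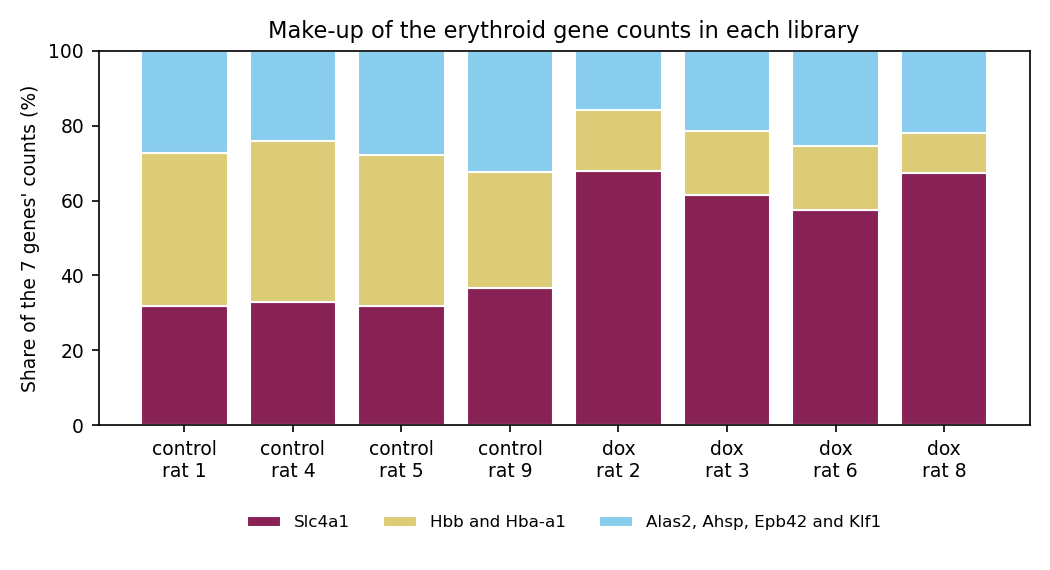
Stacked bars give, for each of the 8 libraries on the x axis, the percentage of the counts of the 7 genes that came from Slc4a1, from Hbb and Hba-a1, and from the other 4 genes. Slc4a1 holds 31.8% to 36.6% of each control bar and 57.6% to 67.9% of each doxorubicin bar.

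All 7 genes passed the filter on low counts and entered a fit over 16976 genes. In edgeR's quasi-likelihood test with Benjamini-Hochberg adjustment, 1 of the 7, Slc4a1, was among the 19 genes called at an adjusted p below 0.05, which is 0.112% of all genes tested. DESeq2 called Slc4a1, Hbb and Hba-a1, where it called 1.02% of all genes, and limma-voom called Slc4a1, where it called 0.141%. The groups did not overlap for 3 of the 7 and for 4.72% of all genes. Since the 7 were chosen from this contrast, these counts are no evidence about them. Of 8 edgeR fits that each left out 1 rat, Slc4a1 was called in 3, without doxorubicin rat 2, 3 or 6, Hbb in 1, without doxorubicin rat 2, and Hba-a1 in 0. Over all genes, the same fits called 1 to 59 higher and 0 to 3 lower. The 59 came without doxorubicin rat 2, and only 1 higher was called without control rat 4 or 5 or doxorubicin rat 8.

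Other genes of the red cell pathways gave no calls. Of 78 such genes measured, 62 were tested, and edgeR, DESeq2 and limma-voom each called 0 over all genes. The 62 include genes at high levels in these germ cell libraries, such as Fth1 and Tfrc at 613 and 245 CPM in controls. Counts over the 62 therefore do not describe red cell transcripts alone. At an unadjusted p below 0.05, edgeR had 3 higher and 4 lower, which is 11.3% of the 62, where 6.76% of all genes tested passed. Of the 62, 21 lay on the positive and 41 on the negative side, and their median log2 fold change was -0.03. Over all genes 8108 were positive and 8868 negative, around a median of -0.0047. For the 62 red cell pathway genes, log2 fold changes ran from -0.42 to 0.38.

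Among 14 genes of heme synthesis and breakdown other than Alas2, 12 lay on the negative and 2 on the positive side, around a median of -0.06 (log2). Over all genes tested, 52.2% lay on the negative side. At an unadjusted edgeR p below 0.05 stood 1 higher and 2 lower, 21.4% of the list, against 6.76% of all genes tested. The groups did not overlap for 2 genes, both lower, which is 14.3% of the list against 4.72% of all genes tested. One of these, Uros, an enzyme of heme synthesis, averaged 20.7 ± 0.862 CPM in control rats and 18.9 ± 0.762 CPM in treated rats (SD, n = 4 each), with an edgeR adjusted p of 0.726. The other, Slc25a38, the mitochondrial carrier that brings in glycine for heme, averaged 10.5 ± 0.395 CPM in control rats and 9.17 ± 0.547 CPM in treated rats. Its fitted log2 difference was -0.19 ± 0.08, with an edgeR adjusted p of 0.635. Hmox1, the heme oxygenase that breaks heme down, averaged 38.5 ± 1.35 and 42.4 ± 2.53 CPM, and its fitted log2 difference of 0.14 ± 0.05 had an edgeR adjusted p of 0.588. Alas1, the form of the enzyme that most cells use in place of Alas2, was at 39.1 ± 1.37 and 39.3 ± 1.81 CPM, with a 95% interval of the log2 fold change from -0.10 to 0.11.

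Of 13 genes of iron uptake and storage, 7 were positive and 6 negative. An unadjusted edgeR p below 0.05 was reached by 0 of them, against 6.76% of all genes tested. The transferrin receptor Tfrc, which brings iron into the cell, differed by -0.08 ± 0.04 on the log2 scale, with an edgeR adjusted p of 0.787. The iron exporter Slc40a1 differed by 0.23 ± 0.15, with an edgeR adjusted p of 0.843.

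In the red cell membrane and skeleton list, 17 genes other than Slc4a1 and Epb42 were tested, of which 6 were positive and 11 negative. The beta spectrin Sptb and the ankyrin Ank1, which tie band 3 to the skeleton, had log2 fold changes of -0.07 ± 0.06 and -0.17 ± 0.16. The glucose transporter Slc2a1 had one of -0.21 ± 0.08 (edgeR adjusted p = 0.612), and the actin-binding dematin (Dmtn) one of 0.22 ± 0.09 (edgeR adjusted p = 0.696). The blood group antigen Kel was at 1 count in doxorubicin rat 6 and 0 elsewhere.

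Erythroid transcription factors gave 5 positive and 7 negative genes among 12 tested besides Klf1. Gata1, which works beside KLF1 and is also made by Sertoli cells, averaged 3.07 ± 0.272 CPM in control rats and 3.19 ± 0.633 CPM in treated rats. Foxo3, a factor of stress and red cell maturation, was at 52.0, 52.1, 53.3 and 55.7 CPM in control rats 1, 4, 5 and 9 and at 72.0, 57.9, 58.7 and 60.4 CPM in doxorubicin rats 2, 3, 6 and 8. The groups did not overlap, with a log2 fold change of 0.23 ± 0.06, but the gene was not called (edgeR adjusted p = 0.322). E2f2, a cell cycle factor, differed by -0.37 ± 0.13 on the log2 scale, with an edgeR adjusted p of 0.517. The erythropoietin receptor Epor had 1 to 18 counts in a library, and Gfi1b had 0 to 3. Among 6 enzymes of red cells tested besides Ahsp, hexokinase 1 (Hk1) and catalase (Cat) differed by -0.09 ± 0.06 and -0.07 ± 0.09 on the log2 scale, with edgeR adjusted p of 0.846 and 0.96, and carbonic anhydrase 1 (Car1) had 0 to 2 counts in a library.

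**Figure D4:**
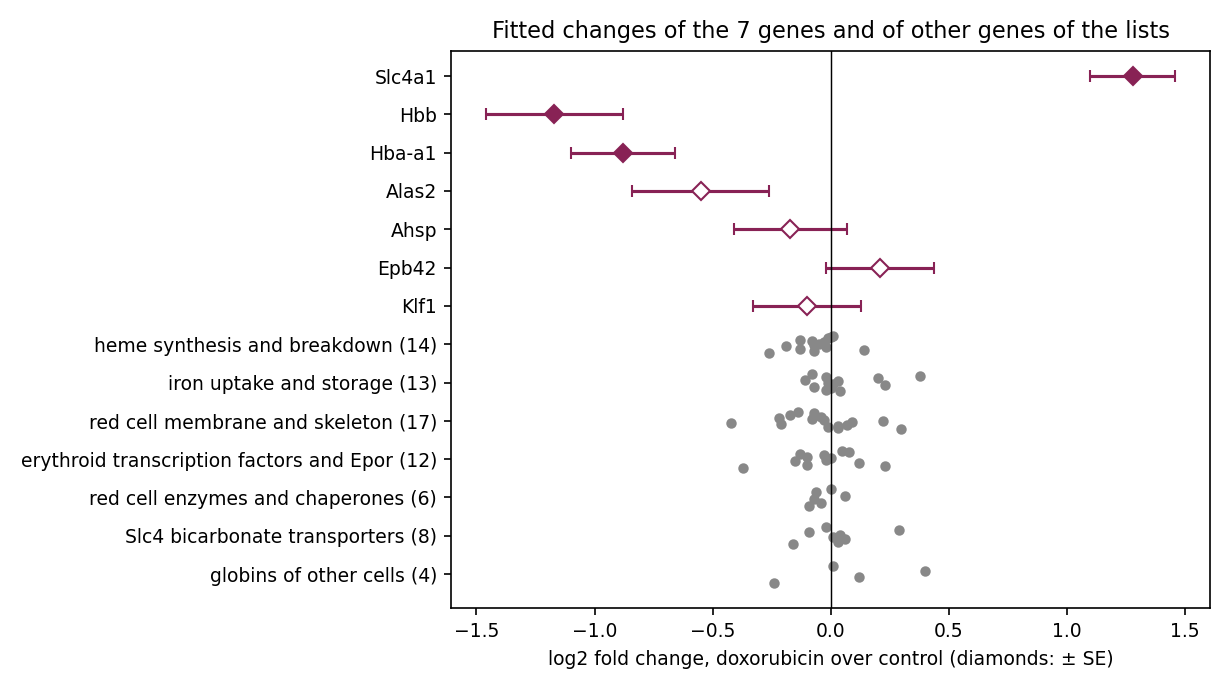
The x axis gives the log2 fold change of doxorubicin over control. Diamonds with SE bars are the 7 genes, filled for Slc4a1, Hbb and Hba-a1, and grey points are the other tested genes of each list, with their number in brackets; a gene in more than 1 list appears in each. Slc4a1 at 1.28, Hbb at -1.17 and Hba-a1 at -0.88 were chosen from this contrast, and the grey points run from -0.42 to 0.40.

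Slc4a1 has relatives that carry bicarbonate in other tissues. Of 8 other Slc4 genes tested, 5 were positive and 3 negative, and 0 were called by edgeR, DESeq2 or limma-voom. At an unadjusted edgeR p below 0.05 stood 1, higher after doxorubicin, which is 12.5% of the list against 6.76% of all genes tested. The anion exchanger Slc4a2, found in most tissues, averaged 67.2 ± 5.14 CPM in control rats and 66.2 ± 7.66 CPM in treated rats (SD, n = 4 each), with a 95% interval of the log2 fold change from -0.20 to 0.16. Slc4a3, an anion exchanger of heart and brain, was at 10.7, 10.6, 11.0 and 11.8 CPM in control rats 1, 4, 5 and 9 and at 15.7, 12.3, 12.6 and 13.1 CPM in doxorubicin rats 2, 3, 6 and 8. The groups did not overlap, rat 2 was again the highest, and the log2 difference was 0.29 ± 0.09, with an edgeR adjusted p of 0.4. Slc4a11 had one of -0.16 ± 0.08 (edgeR adjusted p = 0.796). Of 4 globins of other cells, 3 were positive and 1 negative. Neuroglobin (Ngb) averaged 1.23 ± 0.151 and 1.25 ± 0.154 CPM, with a 95% interval of the log2 fold change from -0.34 to 0.37.

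Among the nearest measured genes on each side of Slc4a1, Hbb and Hba-a1 in RefSeq order, only Ubtf, Rundc3a and Or52a5 were tested. None of them was called by edgeR, DESeq2 or limma-voom. Ubtf, a ribosomal DNA transcription factor next to Slc4a1, differed by -0.04 ± 0.03 on the log2 scale, with an edgeR adjusted p of 0.913. Rundc3a, 2 places away on the other side, differed by 0.25 ± 0.11, with an edgeR adjusted p of 0.728. The olfactory receptor Or52a5, 6 places from Hbb, had 9 to 31 counts in a library and differed by 0.33 ± 0.38 on the log2 scale, with an edgeR adjusted p of 0.95, and the pseudogene Hbe1l-ps1 was at 0 throughout. On the sides of Hba-a1 stood Hbq1b and Hbz, given above. Hbe1l-ps1, Hbq1b and Hbz did not pass the filter on low counts, so they could not be called.

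Over the 8 libraries, the 5 genes most like Slc4a1 in log2 CPM, among 13568 with a mean of at least 1 CPM, were Cpt1c, Klhl20, Jund, Nthl1 and M1ap, with Pearson correlations of 0.993, 0.992, 0.988, 0.985 and 0.984. These values carry the difference between the groups and the high value of doxorubicin rat 2, and are a description with no test. M1ap, a meiosis gene, ran from 0.545 to 0.777 CPM in controls and from 1.95 to 5.07 CPM in treated rats. Its fitted log2 difference was 2.26 ± 0.28. Klhl20, an adaptor of a ubiquitin ligase, differed by 0.34 ± 0.05, and Cpt1c, a brain-type carnitine palmitoyltransferase, by 0.97 ± 0.17. Since likeness to Slc4a1 selects genes that differ between the groups, these differences are given with no test. The 5 genes most like Hbb were Oxnad1, Rad51ap1, Bfsp2, Tmem167b and Hba-a1, with correlations of 0.959, 0.943, 0.937, 0.935 and 0.932. Apart from Hba-a1, their log2 fold changes ran from -0.13 to -0.06, against -1.17 for Hbb, likewise with no test.

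The summed levels of markers of other blood and testis cells overlapped between the groups, in each list. In the endothelial, leukocyte and platelet lists, 1 gene made up much of the sum. Pecam1 averaged 70.7 CPM in controls, where the endothelial list averaged 111 CPM. Mrc1 averaged 17.9 of 26.1 CPM in controls, and Treml1 6.60 of 11.1 CPM. Overlap of these sums therefore says little about the other markers of these lists. Of 12 platelet markers, 6 averaged under 0.1 CPM, among them Pf4 and Ppbp, and the list summed to 10.3 to 12.2 CPM in controls and 10.47 to 11.96 CPM after doxorubicin. Of 17 leukocyte and macrophage markers, 6 averaged under 0.1 CPM, among them Adgre1, C1qa and S100a8, and the sums were 23.3 to 30.3 and 25.3 to 28.5 CPM. Endothelial markers summed to 100 to 119 CPM and 113 to 128 CPM over 11 genes. Sertoli markers summed to 72.5 to 81.3 and 69.96 to 82.89 CPM over 10 genes, Leydig markers to 5.87 to 8.32 and 4.38 to 9.71 CPM over 6 genes, and peritubular and stromal markers to 57.8 to 67.7 and 51.3 to 65.5 CPM over 8 genes. Single markers of the last list differed in both directions, and none was called by edgeR. Col1a1 ran from 21.3 to 25.3 CPM in controls and from 18.3 to 21.2 CPM in treated rats, and Pdgfra from 12.9 to 14.7 and from 11.8 to 12.8 CPM, both without overlap. Over all genes tested, 4.72% were without overlap. Col1a2 had a log2 difference of -0.27 ± 0.09, with an edgeR adjusted p of 0.459. The smooth muscle myosin Myh11 ran from 3.96 to 6.23 CPM in controls and from 5.86 to 14.1 CPM in treated rats, highest in doxorubicin rat 2 as Slc4a1 was, with a log2 difference of 0.79 ± 0.27 and an edgeR adjusted p of 0.561. The macrophage gene C1qa had 1 to 3 counts in control and 0 to 1 in treated libraries. The Leydig gene Cyp17a1 had 78, 95, 49 and 14 counts in control rats 1, 4, 5 and 9. In doxorubicin rats 2, 3, 6 and 8 it had 96, 111, 0 and 0 counts. Hsd3b1 had 79, 24, 31 and 7 counts against 29, 41, 1 and 0, in the same order. The Leydig sum does not show these differences, because Star held much of it, at 4.36 and 4.63 CPM. Two-sided exact permutation tests of the 7 lists other than the erythroid one, germ cells included, gave adjusted p from 0.800 to 1.00, where the smallest raw p possible was 0.0286. The part of any of these cells in the levels of Slc4a1 or the globins was not tested.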

How the data were processed

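PolyA RNA of GFP-positive germ cells from 8 rats was sequenced. Tools in the submitters' processing notes, with no role or order, are kallisto 0.48.0, DESeq2 1.40.2, fastp 0.23.2 and others, and the build is rn6. The authors deposited estimated counts per gene, not normalized. Each library held 32.52% to 33.57% fractional values (tolerance 1e-06), and all were rounded before testing. The strand setting, and how reads shared by several genes were handled, were not given in the sources used here.

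Samples were grouped by title, 4 rats each. Members and lists were chosen with earlier results of these data known. A repeated symbol was read from its row with the highest mean count. Of 2356 rows without a symbol, 7 were named from RefSeq (GRCr8), used for names, neighbours and promoters only. In R 4.3.3, edgeR 4.0.16 (filterByExpr, TMM, glmQLFit with robust = TRUE, glmQLFTest, no covariate) tested 16976 genes with Benjamini-Hochberg adjustment at 0.05. Its common biological coefficient of variation was 8.82%. Log2 CPM for correlations used a prior count of 2. CPM errors are SD, errors of log2 fold changes are SE, and intervals cover 95%. Marker sums were compared by exact permutation over 70 arrangements. The procedure was tested on simulated data.

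Genes to name were the 7 members, every erythroid globin row, the calls of each list or otherwise its 2 smallest p at 1 CPM or more, the nearest measured neighbours of Slc4a1, Hbb and Hba-a1, and the 5 genes most correlated with Slc4a1 and with Hbb. Other list genes (such as Alas1, Gata1, Sptb, Slc4a2, Rhag and Kel) were named after their values were seen, for their known role. Uros, Fth1, C1qa, Col1a1, Col1a2, Pdgfra, Myh11, Cyp17a1, Hsd3b1, Star, Pecam1, Mrc1 and Treml1 were named for their values. Alternatives were DESeq2 1.42.0, limma-voom (limma 3.58.1), RLE factors, library size only, no filter, a minimum mean of 1 CPM, a non-robust fit and leaving out each rat.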

Additional observations from a re-analysis of the deposited data

Results flagged for a closer look

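Of 78 groups of 4 rats examined, for named genes with a mean of at least 10 counts and for the marker sums, 2 held a rat far from the other 3 of its group by Dixon's criterion, where chance gives about 1 in 20 groups, or 3.90. Slc4a1 stood at 10.8 CPM in doxorubicin rat 2, against 6.08 to 6.75 CPM in the other treated rats. The iron exporter Slc40a1 stood at 3.58 CPM in control rat 4, against 2.51 to 2.57 CPM in the other controls.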

How the results depend on the processing

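The log2 fold changes of the 7 genes kept their sign in all 101 alternative values: Slc4a1 ran from 1.05 to 1.37, Hbb from -1.57 to -0.98, Hba-a1 from -1.03 to -0.70, Alas2 from -0.68 to -0.39, Ahsp from -0.35 to -0.02, Epb42 from 0.06 to 0.37 and Klf1 from -0.22 to -0.01. The log2 ratio of the mean summed Hbb and Hba-a1 CPM ran from -1.22 to -0.82 when single rats were left out. Other erythroid genes had 0 calls under every alternative. Over all genes, where edgeR called 18 higher and 1 lower, DESeq2 called 161 and 12, a fit that was not robust called 52 higher, and a mean of at least 1 CPM left 0 lower; the cause was not tested. Leaving out 1 rat gave 1 to 59 higher (59 without doxorubicin rat 2, and 1 without control rat 4 or 5 or doxorubicin rat 8) and 0 to 3 lower. Of 374 alternatives for 25 other named genes, 357 kept the side of the threshold, 12 lost a call (Klhl20 and M1ap) and 5 gained one (Cpt1c and Jund). All genes that lost or gained a call were picked for likeness to Slc4a1, so their calls are no evidence about them. No paired analysis was possible because the groups share no rat number. Counts of 22 to 98 for Hbb and 38 to 150 for Hba-a1 in a library limit what can be seen in single rats.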
